A study of Mus musculus with 14 samples.

Results

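Cytochrome P450 families 2 and 3 were followed in RNA sequencing libraries of liver and aorta from BT3xHuBL and HuBL mice. The members were taken by name: every row of the count tables whose gene name is Cyp2 or Cyp3, a subfamily letter and a gene number, other than Cyp2e1, Cyp2c29, Cyp2c37 and Cyp2f2. That left 51 of 24732 features. There were 13 in subfamily 2c, 9 in 2d, 7 each in 2j and 3a, 5 in 2b and 4 in 2a, and 6 stood alone in theirs: Cyp2g1, Cyp2r1, Cyp2s1, Cyp2t4, Cyp2u1 and Cyp2w1. The libraries formed 4 groups: 4 BT3xHuBL livers, 4 HuBL livers, 3 BT3xHuBL aortas and 3 HuBL aortas, all after 52 weeks of ordinary laboratory chow. The labels give the genotypes by name alone. From earlier work with these strains, HuBL stands for mice without the LDL receptor that express the human form of apolipoprotein B, and BT for T cell receptor transgenes directed at that protein. The sources used here do not give the transgenes' promoters, the sex of the mice or any pooling. They also do not say whether each library is a separate mouse, and the spread behind the p-values may therefore be partly technical.

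These P450s are haem enzymes of the endoplasmic reticulum that insert an oxygen atom into drugs, steroids, bile acids and fatty acids, using electrons passed on by P450 reductase (Por). In liver, subfamilies 2a, 2b, 2c, 2d and 3a carry much of drug and steroid clearance. The xenobiotic receptors CAR and PXR raise several of them, and in rodents the pulsed growth hormone of males and the steadier hormone of females set many of them to sex-specific levels. Subfamily 2j and part of 2c turn arachidonic acid into epoxyeicosatrienoic acids, which relax blood vessels and are broken down by the soluble epoxide hydrolase Ephx2. Cyp2r1 makes 25-hydroxyvitamin D, and Cyp2u1 hydroxylates long-chain fatty acids.

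In GENCODE M21 (GRCm38), 49 members were found by name, all protein-coding, and Cyp2c44 and Cyp2d13 were not matched. Subfamilies 2a and 2b lie intermixed on chromosome 7, 2c on chromosome 19, 2d on chromosome 15, 2j on chromosome 4 and 3a on chromosome 5. Close copies can share reads. In the last 400 bases of their coding transcripts, where a 3′-end library reads, 23 members had no 50-base window in common with another gene, 26 had at least one, and in 12 more than 20% of windows were shared. The share was 67.0% in Cyp2c40 (mostly with Cyp2c68), 51.6% in Cyp2c68, 39.9% in Cyp2c69, 37.3% in Cyp2c67 and 33.3% in Cyp2a4 (with Cyp2a5). In the others of these 12 it was 33.0% in Cyp2d26, 29.9% in Cyp2d40, 26.8% in Cyp2d9 and 26.2% in Cyp2d34. It was 25.1% in Cyp2d10, 23.1% in Cyp2c50 and 20.8% in Cyp2d11. Counts of these genes are less certain, and the size of any error was not measured. Cyp2d10 and Cyp2d11 are listed with a DUP suffix that the sources used here do not explain.

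The promoters of 6 members whose liver levels are described in detail are shown because most of them are near copies of a neighbour's. Each is the 250 bases before the RefSeq start (GRCm38.p6), 5′ to 3′ on the gene's strand. Capitals mark 3 motifs: the core promoter box with the letters TATAAA, the HNF4 element with the letters CAAAGTCCA and the HNF6 element with the letters ATCAAT, searched on both strands, so that ATTGAT is an HNF6 match on the other strand. Cyp2a4 is at chr7:26306942-26307191 (+), Cyp2a5 at chr7:26835089-26835338 (+) and Cyp2a12 at chr7:27028840-27029089 (+). Cyp2c40 is at chr19:39812815-39813064 (−), Cyp2c69 at chr19:39886770-39887019 (−) and Cyp2c68 at chr19:39741102-39741351 (−).
Cyp2a4: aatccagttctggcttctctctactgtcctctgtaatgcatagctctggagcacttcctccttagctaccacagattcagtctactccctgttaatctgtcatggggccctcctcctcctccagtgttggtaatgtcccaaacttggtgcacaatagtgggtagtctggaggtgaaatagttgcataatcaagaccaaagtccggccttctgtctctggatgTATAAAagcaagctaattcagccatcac
Cyp2a5: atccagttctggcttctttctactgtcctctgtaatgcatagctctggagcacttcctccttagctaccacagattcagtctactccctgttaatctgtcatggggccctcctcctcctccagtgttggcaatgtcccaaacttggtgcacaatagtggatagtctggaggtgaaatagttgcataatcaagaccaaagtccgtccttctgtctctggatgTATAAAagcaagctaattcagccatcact
Cyp2a12: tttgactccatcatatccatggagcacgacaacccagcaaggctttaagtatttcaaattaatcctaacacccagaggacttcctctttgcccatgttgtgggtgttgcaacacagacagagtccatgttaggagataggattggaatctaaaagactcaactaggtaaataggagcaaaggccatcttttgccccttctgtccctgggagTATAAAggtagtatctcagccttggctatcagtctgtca
Cyp2c40: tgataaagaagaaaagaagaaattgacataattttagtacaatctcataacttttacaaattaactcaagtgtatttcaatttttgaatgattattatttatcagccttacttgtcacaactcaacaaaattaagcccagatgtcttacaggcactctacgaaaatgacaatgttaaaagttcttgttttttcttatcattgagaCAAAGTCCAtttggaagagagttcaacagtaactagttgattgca
Cyp2c69: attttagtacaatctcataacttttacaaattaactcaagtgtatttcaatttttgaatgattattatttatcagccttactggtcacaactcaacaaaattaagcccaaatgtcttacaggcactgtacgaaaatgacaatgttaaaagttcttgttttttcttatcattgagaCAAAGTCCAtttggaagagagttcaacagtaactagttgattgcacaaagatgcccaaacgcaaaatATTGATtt
Cyp2c68: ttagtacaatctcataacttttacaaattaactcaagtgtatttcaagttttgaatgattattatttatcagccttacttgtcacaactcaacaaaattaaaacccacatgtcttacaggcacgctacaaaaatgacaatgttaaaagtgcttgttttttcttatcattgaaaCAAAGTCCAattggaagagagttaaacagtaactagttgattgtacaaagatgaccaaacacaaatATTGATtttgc
In global alignments with end gaps free and left out, Cyp2a4 and Cyp2a5 were identical at 245 of 249 bases (98.4%), and Cyp2c40 and Cyp2c69 at 217 of 220 overlapping bases (98.6%). Cyp2c68 matched Cyp2c40 at 207 of 218 aligned bases. Of 43 members with a promoter entry, 19 held TATAAA (12.4% of all 32851 promoters in the table), 8 held CAAAGTCCA (0.384%) and 7 held ATCAAT (6.72%). The CAAAGTCCA matches were in Cyp2c40, Cyp2c65, Cyp2c67, Cyp2c68, Cyp2c69, Cyp2c70, Cyp3a11 and Cyp3a16. Those of Cyp2c40, Cyp2c67, Cyp2c68 and Cyp2c69 were aligned in pairs and were identical at 91.7% to 98.6% of aligned bases, and the other 4 were not aligned with them. TTCNNNGAA, the STAT5 element, was in 2 member promoters (7.02% of all), those of Cyp2j11 and Cyp2j12, which had no liver counts. The letters TTATGTAA of the D-box and the HNF1 element were in 0 member promoters (0.819% and 0.00913% of all). A match describes letters in a window and is not a measured site.

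Liver libraries held 13228123 to 17992459 counts and aorta libraries 41933263 to 65539765. The 6 hepatocyte markers summed to at least 108217 CPM in every liver, and in aorta to 6.25 to 10.8 CPM in BT3xHuBL and 5.85 to 7.55 CPM in HuBL. Nearly all of the aorta sum was Ahsg, and Alb, the most liver-defining of them, had at most 0.621 CPM there. Smooth muscle markers (Acta2, Myh11, Tagln and Cnn1) summed to 11216 CPM or more in every aorta, and in liver to 9.84 to 17.3 CPM in BT3xHuBL and 15.4 to 35.3 CPM in HuBL. Y-linked Ddx3y had 1241 to 2420 counts in each liver and 4556 to 7437 in each aorta, while Xist, which marks the inactive X chromosome of females, had 0 to 3 in each liver and 3 to 19 in each aorta. Trav14-1, a T cell receptor segment chosen after its counts were seen, had 1, 1, 0 and 2 counts in BT3xHuBL livers and 0 in each HuBL liver, and 4, 52 and 0 in BT3xHuBL aortas and 0 in each HuBL aorta. Those counts do not settle the genotype of either BT3xHuBL replicate 3. BT3xHuBL liver replicate 4 stood apart, as described with the liver results.

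Levels are given as CPM, counts scaled to a common library total, with libraries in the order of their replicate numbers. Because 3′-end libraries count transcripts whatever their length, CPM of different genes can be set side by side, apart from reads that close copies share. In liver, 44 members had at least 1 count, 32 averaged at least 1 CPM, 18 at least 100 CPM and 1 at least 1000 CPM. The top 12 members made up 87.0% of the members' summed CPM there. Cyp3a11, a main drug-metabolising P450 of mouse liver and a PXR target, had 3602, 1766, 1978 and 2317 CPM in BT3xHuBL livers, against 2453, 1540.3, 2120.4 and 2026 CPM in HuBL livers. It alone was 22.7% of the summed level, and its highest library was BT3xHuBL replicate 1, with the genotypes overlapping.

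Next in liver came 4 members that averaged 629.9 to 857 CPM over the 8 libraries: Cyp2d9, a testosterone 16-alpha-hydroxylase of males, Cyp2d26, Cyp2j5, an arachidonic acid epoxygenase of liver and kidney, and Cyp3a25. Cyp2j5 was among the steadiest, at 608, 671, 693 and 793 CPM in BT3xHuBL and 641, 697, 670.2 and 645 CPM in HuBL. Cyp2c50 and Cyp2c54, which epoxidise arachidonic acid, averaged 623 and 281 CPM, and Cyp2c44, another epoxygenase, 471 CPM. Cyp2c70, which makes the muricholic bile acids of rodents, averaged 609.8 CPM, and Cyp2a12, which restores the 7-alpha-hydroxyl group of bile acids in mice, 537 CPM. Cyp2d10 averaged 469.9 CPM and Cyp2a5, the coumarin 7-hydroxylase, 322 CPM. Neighbours in this order lay within the spread of single libraries, as the ranges of Cyp2c50 (536 to 721 CPM) and Cyp2c70 (337 to 1020.2 CPM) show.

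Their libraries spread unevenly. Cyp2d26 had 676, 831, 747 and 1139 CPM in BT3xHuBL livers, against 892, 738, 816 and 809 CPM in HuBL livers, with BT3xHuBL replicate 4 the highest. Cyp3a25, a steroid-hydroxylating member, had 687, 659, 592 and 549 CPM in BT3xHuBL livers, against 756, 488, 496 and 811 CPM in HuBL livers. Neither gene separated the genotypes. Among the epoxygenases, Cyp2c50 had 581, 625, 712 and 605 CPM in BT3xHuBL livers, against 644, 721, 556 and 536 CPM in HuBL livers. Cyp2c44 had 408, 458, 502 and 541 CPM in BT3xHuBL livers, against 521, 465, 461 and 408 CPM in HuBL livers, and was highest in BT3xHuBL replicate 4. Cyp2c54 had 232, 284, 303 and 282 CPM in BT3xHuBL livers, against 290.5, 357, 237 and 263 CPM in HuBL livers. All 3 epoxygenases overlapped between genotypes, and their libraries varied far less than those of Cyp2c70. Cyp2c70 had 337, 533, 594 and 1020.2 CPM in BT3xHuBL livers, against 482, 773, 619.9 and 519.8 CPM in HuBL livers, with BT3xHuBL holding both the lowest and the highest library. Cyp2d10 had 407, 422, 479 and 482 CPM in BT3xHuBL livers, against 568, 460.2, 456 and 484 CPM in HuBL livers, overlapping at its upper values.

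**Figure D1:**
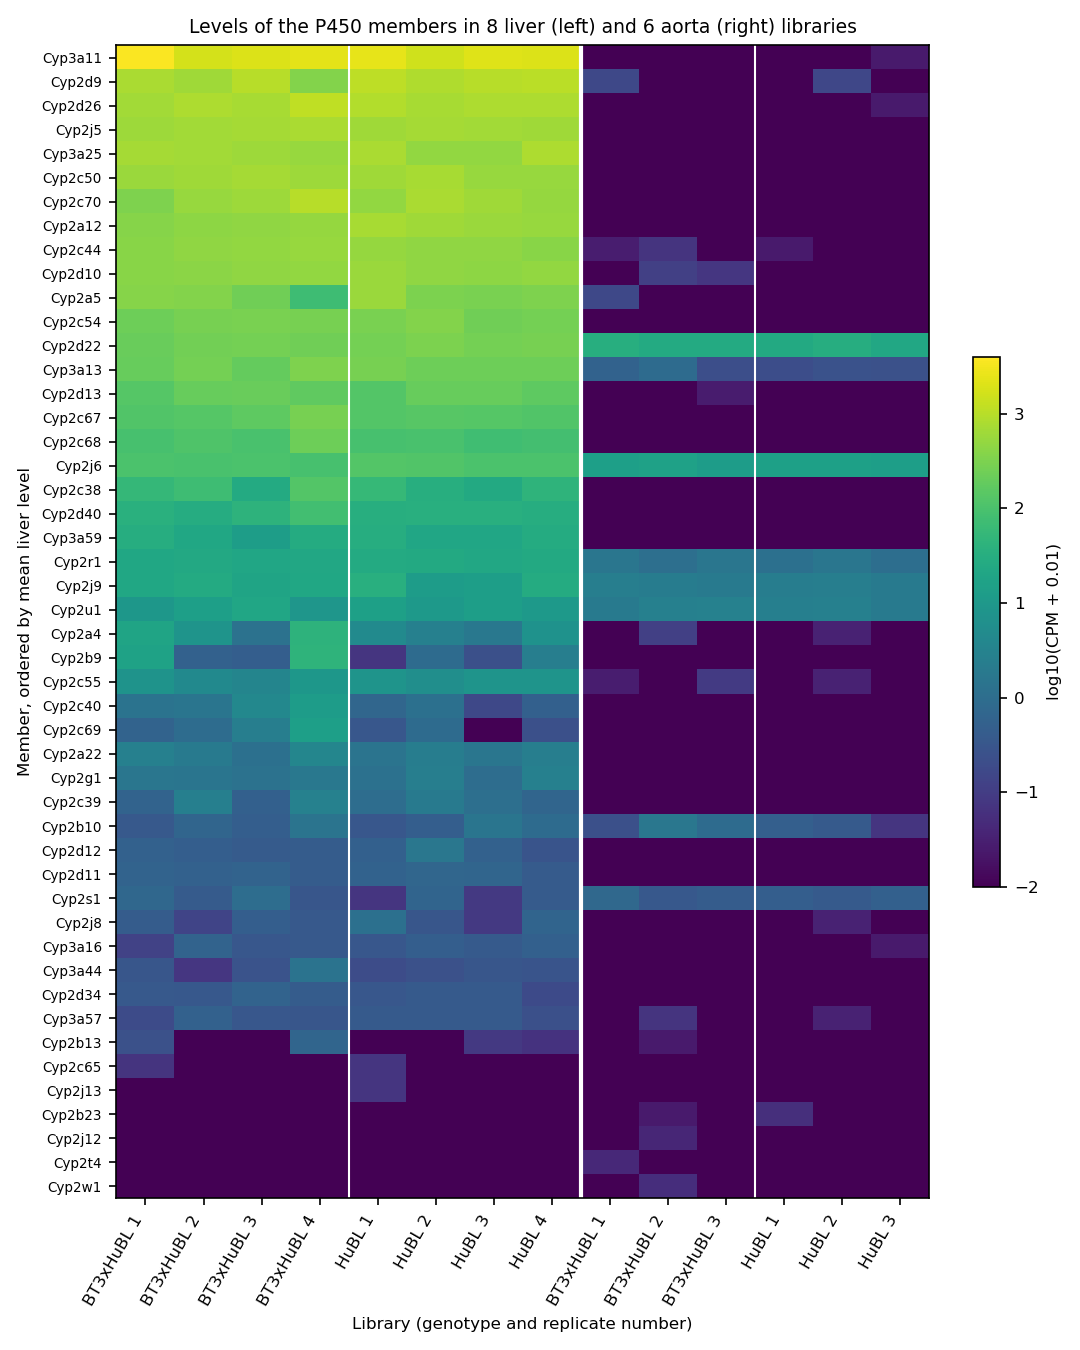
Colour gives log10(CPM + 0.01) of the 48 members with at least 1 count, in rows ordered by mean liver level, for 8 liver libraries on the left and 6 aorta libraries on the right, BT3xHuBL before HuBL in each tissue. Cyp2d22 and Cyp2j6 are the 2 bright rows of the aorta.

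The aorta held a much shorter set. Of the 51 members, 25 had at least 1 count there and 5 averaged at least 1 CPM, while 23 had counts in liver only, 4 in aorta only (Cyp2b23, Cyp2j12, Cyp2t4 and Cyp2w1, with 2 to 4 counts each) and 3 in neither tissue (Cyp2b19, Cyp2c66 and Cyp2j11). Cyp2d22, often set beside human CYP2D6, had 32.7, 26.8 and 27.1 CPM in BT3xHuBL aortas, against 24.7, 30.9 and 22.6 CPM in HuBL aortas. Cyp2j6, an epoxygenase with broad tissue expression, had 14.8, 16.3 and 12.6 CPM in BT3xHuBL, against 14.9, 14.9 and 13.9 CPM in HuBL. Together they were 84.3% of the members' summed aorta CPM, and 8 members made up 99.6%. Below them came Cyp2u1 (mean 2.51 CPM), Cyp2j9 (2.28 CPM) and Cyp2r1 (1.34 CPM), and then Cyp2b10, Cyp2s1 and Cyp3a13 (0.611, 0.481 and 0.397 CPM). Cyp2s1 had 0.767, 0.344 and 0.423 CPM in BT3xHuBL aortas, against 0.4656, 0.366 and 0.522 CPM in HuBL aortas. Cyp2j9 had 2.51, 2.23 and 1.94 CPM in BT3xHuBL aortas, against 2.41, 2.52 and 2.06 CPM in HuBL aortas. Neither separated the genotypes. Cyp2u1 and Cyp2j9 did not separate from each other, and neither did the last 3.

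Between the tissues, 35 members were fitted. Of these 34 were called higher in liver and 0 lower by edgeR (quasi-likelihood test, adjusted p under 0.05 by Benjamini and Hochberg), where 42.0% of 14912 features were called higher and 46.2% lower (88.3% in either direction). The fit kept 18 of the 35 members through their liver counts alone, since they had no aorta count. Others had very few, such as Cyp3a11 and Cyp2d26 with 1 aorta count each. Within aorta alone only 8 members passed the low-count filter, so the number called says little beyond the filter. Against a floor of 3 counts over all 6 aortas, the 21 members with no aorta count and more than 3 liver counts were at least 71.0-fold (Cyp2d34) to at least 132280-fold (Cyp2j5) higher in liver. Members with clear counts in both tissues differed far less. Cyp2d22 was 15.96-fold higher in liver, Cyp2j6 12.1-fold, Cyp2j9 16.6-fold, Cyp2u1 8.38-fold and Cyp2r1 29.4-fold, as ratios of pooled levels, while Cyp3a13 was 1003-fold higher. These ratios and bounds rest on TMM scaling of all 14 libraries together, unlike the CPM given elsewhere, which were scaled within each tissue. With library totals alone they were lower: 9.62-fold for Cyp2d22, 7.29-fold for Cyp2j6, 10.02-fold for Cyp2j9, 5.05-fold for Cyp2u1, 17.7-fold for Cyp2r1 and 605-fold for Cyp3a13. The bounds were then at least 42.8-fold for Cyp2d34 and at least 79742-fold for Cyp2j5.

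In 2 fitted members levels of the tissues lay close together, and their difference depended on the scaling. Cyp2s1, a P450 of epithelia and other tissues outside the liver, was the one fitted member not called, with a log2 difference of 0.54 (SE 0.42, adjusted p = 0.239). With library totals alone it was −0.22 (adjusted p = 0.632), and scaled within each tissue the means were 0.442 CPM in liver and 0.481 CPM in aorta. Cyp2b10, the classical CAR target, was called higher in liver, with a log2 difference of 1.28 (SE 0.53, adjusted p = 0.0344), though its libraries overlapped between tissues and the means scaled within each tissue were 0.761 CPM in liver and 0.611 CPM in aorta. The call was lost with upper-quartile scaling (1.10, adjusted p = 0.0659), with library totals alone (0.52, adjusted p = 0.351) and with the replicate number as a block (0.98, adjusted p = 0.147). It was also lost without any 1 of 6 libraries (BT3xHuBL liver 4, HuBL livers 3 and 4, BT3xHuBL aortas 1 and 3, HuBL aorta 3), with adjusted p from 0.0556 to 0.1002 and a log2 difference down to 1.00. Bulk RNA cannot tell fewer cells of a type from less RNA per cell, and how the libraries of each tissue were prepared and run cannot be told apart from tissue. With library totals alone in place of TMM the median of all features moved to −0.85 (log2, liver over aorta; −0.088 with TMM), with 3578 features called higher and 9764 lower, and 33 members were called higher.

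Between the genotypes no member passed the test in liver. edgeR called 0 of 33 members tested and 0 of 12453 features (0.0%). At an unadjusted p under 0.05 there were 4 members, against 11.1% of all features. With limma-voom 0 were called, and 6 members and 1460 of 12453 features had an unadjusted p under 0.05. DESeq2 called 1 member, Cyp2a12, among 127 features, with 9 members and 1437 of 12453 features at an unadjusted p under 0.05. The groups did not overlap for 3 members, Cyp2a12, Cyp2c40 and Cyp2d22, against 6.47% of all features. Of the log2 fold changes of BT3xHuBL over HuBL, 19 were above 0 and 14 below, with a median of 0.038 against 0.0092 over all features. The other 18 members, with at most 0.592 CPM on average, were too low to be tested.

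Subfamily 2a held the smallest p and some of the widest spreads. Cyp2a12 had 383, 445, 478 and 506 CPM in BT3xHuBL livers, against 738, 629.7, 581 and 533 CPM in HuBL livers. Every BT3xHuBL library lay below every HuBL library, by a log2 fold change of −0.46 (SE 0.13, edgeR adjusted p = 0.286, unadjusted p = 0.004, DESeq2 adjusted p = 0.0472). The edgeR value stayed between −0.52 and −0.36 with each library left out. Cyp2a5 had 385, 362, 248 and 71.4 CPM in BT3xHuBL, against 571, 316, 291 and 330.2 CPM in HuBL. Its lowest library was BT3xHuBL replicate 4, far below every HuBL value, and the genotypes otherwise overlapped (log2 fold change −0.50, SE 0.51, adjusted p = 0.738). Cyp2a4, a steroid 15-alpha-hydroxylase that is higher in female mice and near-identical to Cyp2a5 upstream, ran the other way in that library: 18.4, 7.83, 1.29 and 40.8 CPM in BT3xHuBL, against 4.86, 2.68, 1.73 and 7.05 CPM in HuBL. Cyp2a4 was 36.3% of the counts of the pair in BT3xHuBL replicate 4 and 0.52% to 4.56% in the other BT3xHuBL livers, against 0.59% to 2.09% in HuBL livers. Its log2 fold change was 2.04 (SE 0.96, adjusted p = 0.476), and 1.15 without that library.

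In subfamily 2c, 2 low members had high fold changes with wide errors. Cyp2c40, a fatty acid hydroxylase, had 1.38, 1.53, 4.14 and 12.4 CPM in BT3xHuBL livers, against 0.694, 1.15, 0.15 and 0.508 CPM in HuBL livers. The groups did not overlap, and the log2 fold change was 2.95 (SE 0.87, adjusted p = 0.327), or 1.90 without BT3xHuBL replicate 4. Cyp2c69, higher in female mouse liver, had 0.6, 0.929, 2.46 and 14.2 CPM in BT3xHuBL, against 0.316, 0.92, 0 and 0.226 CPM in HuBL. Most of its level sat in BT3xHuBL replicate 4. The groups overlapped, with BT3xHuBL replicate 1 below HuBL replicate 2. Its log2 fold change was 3.66 (SE 1.31, adjusted p = 0.401), or 1.87 without BT3xHuBL replicate 4. Both entered the test mainly through BT3xHuBL: 4 and 3 BT3xHuBL libraries and 1 HuBL library each passed the low-count limit of 0.658 CPM. Cyp2c40 shares 3′ sequence with the more abundant Cyp2c68, and Cyp2c69 with Cyp2c40. Of the counts of Cyp2c40 and Cyp2c68 together, Cyp2c40 held 1.31% to 5.12% in BT3xHuBL livers and 0.197% to 1.13% in HuBL livers.

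Cyp2c68 itself had 93.8, 115, 99.8 and 229 CPM in BT3xHuBL livers, against 95.3, 100.3, 76.1 and 86.2 CPM in HuBL livers, with BT3xHuBL replicate 4 apart from the rest. Its log2 fold change was 0.58 (SE 0.28, adjusted p = 0.471), and 0.20 without that library. Cyp2c67 and Cyp2c38 were also highest in BT3xHuBL replicate 4, at 282 and 124 CPM. Their log2 fold changes of 0.41 and 0.80 became 0.084 and 0.35 without it. Cyp2c70 reached 1020.2 CPM in that library, while BT3xHuBL replicate 1 was the lowest of the 8 at 337 CPM, and its log2 fold change of 0.048 (SE 0.31) became −0.30 without replicate 4. The abundant epoxygenases Cyp2c44, Cyp2c50 and Cyp2c54 had log2 fold changes of 0.038, 0.036 and −0.062, each smaller than its standard error of 0.11 to 0.13.

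Subfamily 2b was low in liver apart from 2 libraries. Cyp2b9, a P450 that is much higher in female than in male mouse liver, had 16.7, 0.531, 0.453 and 44.7 CPM in BT3xHuBL, against 0.0631, 0.92, 0.225 and 2.54 CPM in HuBL. BT3xHuBL replicates 1 and 4 were high and the other 2 lay within the HuBL range, giving a log2 fold change of 3.98 (SE 1.67, adjusted p = 0.451), or 2.61 without replicate 4. Its neighbour Cyp2b13, not tested, had its highest levels in the same 2 libraries, at 0.24 and 0.657 CPM. Cyp2b10 stayed between 0.36 and 1.43 CPM in BT3xHuBL and between 0.316 and 1.5 CPM in HuBL (log2 fold change −0.11, SE 0.55).

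**Figure D2:**
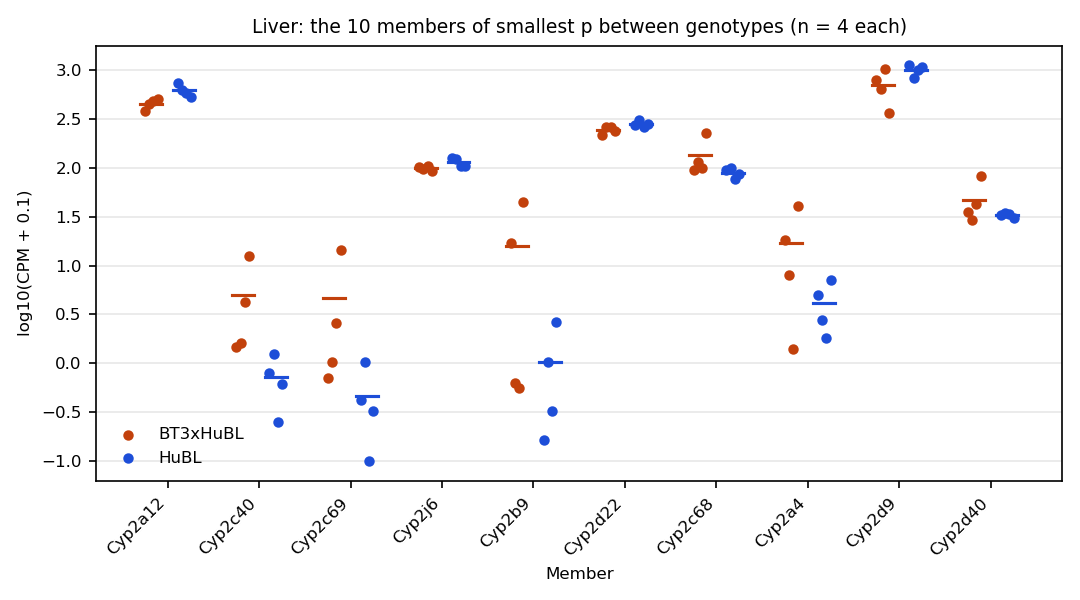
Each point is 1 liver library and each line a group mean, on a log10(CPM + 0.1) axis, for the 10 members of smallest p between genotypes, BT3xHuBL in orange left of HuBL in blue. Cyp2a12, Cyp2c40 and Cyp2d22 do not overlap between genotypes, while Cyp2c69, Cyp2c68 and Cyp2d40 have 1 high BT3xHuBL point each and Cyp2b9 has 2.

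In subfamilies 2d and 2j no difference passed the test. Cyp2d9 had 792, 645, 1021 and 368 CPM in BT3xHuBL livers, against 1121, 839.8, 1009 and 1065 CPM in HuBL livers. The lowest library was again BT3xHuBL replicate 4, and the log2 fold change was −0.51 (SE 0.26, adjusted p = 0.486), or −0.30 without it. Cyp2d22 had 214, 260.3, 263 and 241 CPM in BT3xHuBL, against 272, 309, 265 and 279 CPM in HuBL. All 4 BT3xHuBL libraries lay below all HuBL libraries, by a log2 fold change of −0.20 (SE 0.097, adjusted p = 0.454). Cyp2d40 had 35.2, 29.4, 42.2 and 81.9 CPM in BT3xHuBL, against 32.8, 34.7, 33.4 and 30.9 CPM in HuBL, and its log2 fold change of 0.52 (SE 0.30) was 0.12 without replicate 4. Cyp2j6 had 102, 97.4, 105 and 92.4 CPM in BT3xHuBL, against 126, 122, 104 and 105 CPM in HuBL. The groups met at about 105 CPM, and the log2 fold change was −0.21 (SE 0.091, adjusted p = 0.433).

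No member of subfamily 3a passed the test. Log2 fold changes were 0.25 for Cyp3a11 (SE 0.23), 0.0072 for Cyp3a13 (SE 0.17), −0.037 for Cyp3a25 (SE 0.17) and −0.074 for Cyp3a59 (SE 0.26), with adjusted p from 0.694 to 0.99. Cyp3a13, a member found in intestine and liver, had 197, 269, 192 and 335 CPM in BT3xHuBL and 283, 235, 231 and 237 CPM in HuBL. Cyp3a44, low and not tested, reached 1.31 CPM in BT3xHuBL replicate 4 and stayed at 0.0664 to 0.3 CPM in the other 7 livers. Of the genes with other roles, Cyp2r1 had a log2 fold change of −0.15 (SE 0.094) and Cyp2u1 of 0.057 (SE 0.27).

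**Figure D3:**
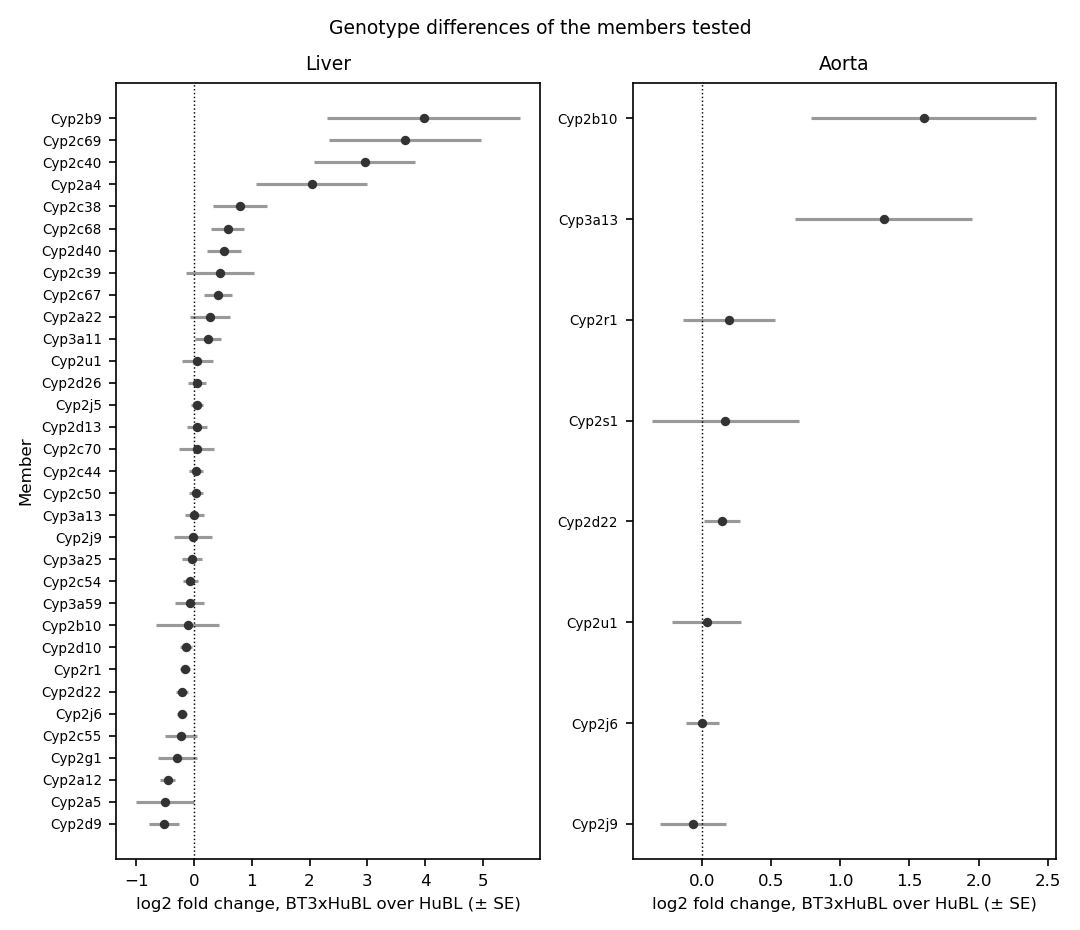
Points are edgeR log2 fold changes of BT3xHuBL over HuBL and bars their standard errors, for the 33 members tested in liver and the 8 tested in aorta. The 4 members at the top of the liver panel, Cyp2b9, Cyp2c69, Cyp2c40 and Cyp2a4, have standard errors from 0.87 to 1.67, and the other liver members lie between −0.51 and 0.80.

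Summed over all members, the level in liver was 9788 ± 658 CPM in BT3xHuBL and 9823 ± 745 CPM in HuBL (SD, n = 4 each). Subfamily 2a summed to 739 ± 86.2 CPM in BT3xHuBL and 1003 ± 211 CPM in HuBL, a ratio of 0.736, and its groups did not overlap. Much of that sum was Cyp2a12, already described, which averaged 453 CPM in BT3xHuBL and 620 CPM in HuBL. Its other members, Cyp2a4, Cyp2a5 and Cyp2a22, each overlapped between genotypes. Subfamily 2d summed to 2472 ± 217 CPM in BT3xHuBL and 2800.1 ± 177 CPM in HuBL. Subfamily 2c summed to 2399.8 ± 538 CPM in BT3xHuBL and 2233 ± 265 CPM in HuBL, and 3a to 3311 ± 837 CPM in BT3xHuBL and 2945 ± 516 CPM in HuBL. Each of these 3 overlapped between genotypes, and the 2c sum was highest in BT3xHuBL replicate 4, at 3122 CPM. These sums are given without a test because the members were chosen with results known.

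**Figure D4:**
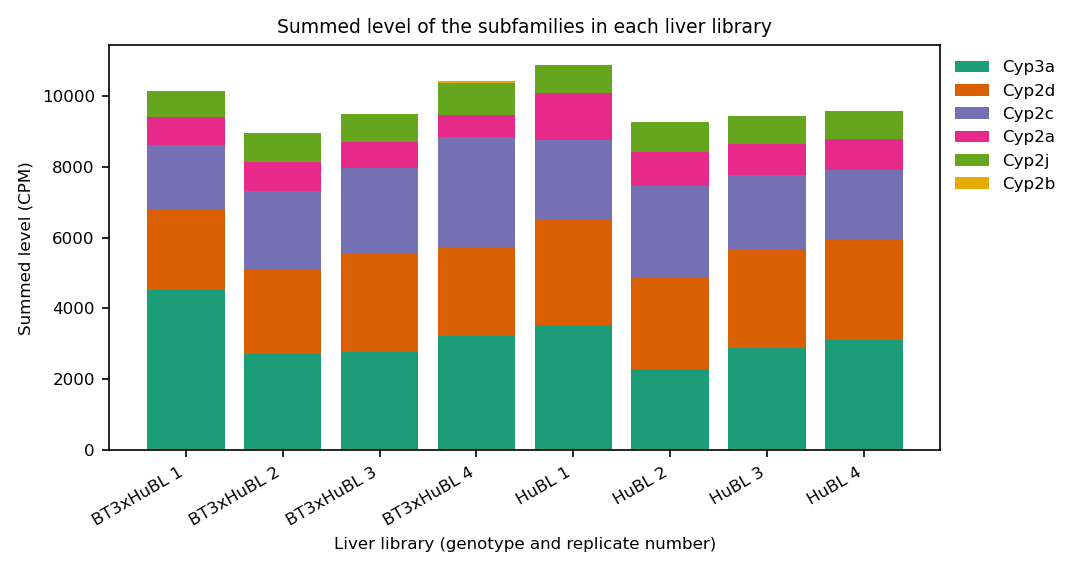
Stacked bars give the summed CPM of 6 subfamilies in each liver library, 4 BT3xHuBL libraries left of 4 HuBL libraries. Totals with the single-gene subfamilies, which are not drawn, lie between 8981 and 10922 CPM. The 2a band is thinnest in BT3xHuBL replicate 4, at 622 CPM, and the 2c band tallest there.

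BT3xHuBL liver replicate 4 was the highest of the 8 libraries for 16 of the 33 members tested and the lowest for 4, where it was highest for 14.8% and lowest for 12.6% of all features. Other genes were extreme there too. Of 15 male-biased liver genes tested it was lowest in 10, while BT3xHuBL replicate 3 was highest in 11. Of 7 female-biased genes tested replicate 4 was highest in 3 and lowest in 1, Ntrk2, at 2.81 CPM. Cyp4a12a and Elovl3 of the male-biased list had 165 and 154 CPM in replicate 4, against 182 to 402 CPM and 341 to 710.3 CPM in the other 7 livers. The acute-phase genes Saa1, Saa2 and Lcn2 had 2428, 2593 and 579 CPM there, against at most 131, 108 and 55.6 CPM elsewhere in liver. Socs2, a target and inhibitor of growth hormone signalling, had 156 CPM there and 16.3 to 27.5 CPM elsewhere, and Acot3, higher in female liver, 55.5 CPM and 0.751 to 4.74 CPM. Socs2 was 1 of 9 growth hormone and STAT5 genes tested between genotypes in liver. Of their log2 fold changes 4 were above 0 and 5 below, with a median of −0.068 and 0 called. Ddx3y, at 114 CPM in replicate 4, lay within the range of the other livers. Their part in the members' differences was not tested. Without replicate 4 edgeR again called 0 members in liver (3 of 33 at an unadjusted p under 0.05, beside 1391 of 12601 features).

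In aorta, edgeR called 0 of 8 members tested and 4 of 15400 features (0.026%). At an unadjusted p under 0.05 there were 0 members in edgeR (4.08% of all features) and in limma-voom (687 of 15400 features). DESeq2 had 1, Cyp2b10, among 714 of 15400 features. DESeq2 called 0 members among 68 features and limma-voom 0 features. The groups separated for 0 members, against 9.31% of all features. Of the 8 log2 fold changes 7 were above 0, with a median of 0.16 against −0.0044 over all features. The abundant members had low values: 0.15 for Cyp2d22 (SE 0.13) and 0.0032 for Cyp2j6 (SE 0.12). The 2 largest were of low members. Of these, Cyp2b10 passed the low-count limit of 0.16 CPM in 3 BT3xHuBL aortas and 2 HuBL aortas, and so entered the test more through BT3xHuBL. Cyp3a13 had 0.575, 0.912 and 0.211 CPM in BT3xHuBL aortas, against 0.202, 0.244 and 0.237 CPM in HuBL aortas, with replicate 3 inside the HuBL range (log2 fold change 1.31, SE 0.64, adjusted p near 1). Cyp2b10 had 0.227, 1.61 and 0.911 CPM in BT3xHuBL, against 0.481, 0.366 and 0.063 CPM in HuBL, with replicate 1 inside the HuBL range (1.60, SE 0.82). Without BT3xHuBL replicate 3 these were 1.71 and 1.61, and without replicate 2, the highest for both, 0.79 and 0.91.

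The other 4 aorta members had log2 fold changes from −0.063 to 0.20, each smaller than its standard error. Cyp2u1 had 1.99, 2.78 and 2.85 CPM in BT3xHuBL and 2.64, 2.76 and 2.04 CPM in HuBL, and Cyp2r1 1.6, 1.11 and 1.58 CPM in BT3xHuBL and 1.16, 1.56 and 1.03 CPM in HuBL. Replicates of either genotype spread as widely as the genotypes did. The members' summed level was 51.9 ± 3.9 CPM in BT3xHuBL and 47.8 ± 5.69 CPM in HuBL (SD, n = 3 each). The 43 members not tested in aorta averaged at most 0.0506 CPM. Some liver-abundant members gave a few counts in single aortas, such as 9 counts of Cyp2a5 in BT3xHuBL replicate 1, a library with 0 counts of the other 5 hepatocyte markers and the most Ahsg, 10.8 CPM.

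**Figure D5:**
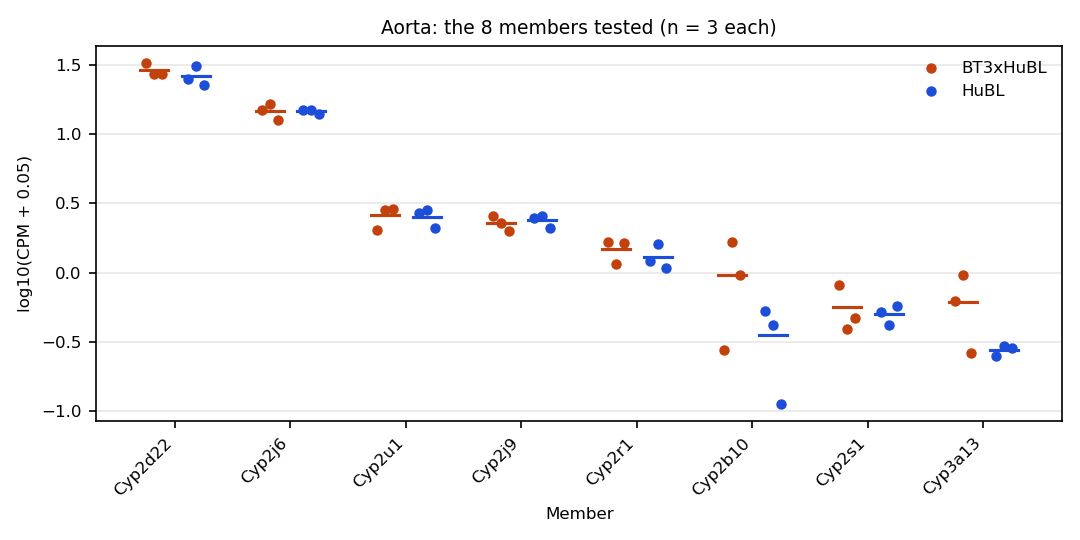
Each point is 1 aorta library and each line a group mean, on a log10(CPM + 0.05) axis, for the 8 members tested, BT3xHuBL in orange left of HuBL in blue. Groups overlap for all 8, with the widest spread for Cyp2b10.

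A test of whether the genotype difference itself differed between tissues took 7 members. edgeR called 0 of them and 0 of 11951 features (0.0%). At an unadjusted p under 0.05 there were 2 members, Cyp3a13 (log2 difference of differences, liver minus aorta, −1.33, SE 0.52, adjusted p = 0.532) and Cyp2d22 (−0.37, SE 0.16, adjusted p = 0.563), against 8.61% of all features. DESeq2 and limma-voom also called 0 members, with 2 and 1 at an unadjusted p under 0.05. Of 11951 features, 1211 and 988 had such a p. For Cyp2d22 the difference was −0.20 in liver and 0.15 in aorta, and for Cyp3a13 it was 0.0072 in liver and 1.31 in aorta.

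Partner and regulator genes of the P450s were read from 11 lists, chosen with earlier results of these data known. The shares below therefore describe the lists and do not test them. In liver 0 of 134 tested genes were called, and 15 had an unadjusted p under 0.05, against 11.1% of all features. In aorta 1 of 104 was called, against 0.026% of all features, and 9 had an unadjusted p under 0.05, against 4.08%. Por had 116, 175, 120.5 and 189 CPM in BT3xHuBL livers, against 134, 106, 73.3 and 83.7 CPM in HuBL livers (log2 fold change 0.59, SE 0.22, adjusted p = 0.389). The receptor gene Nr1i3, which encodes CAR, gave 0.47 (SE 0.15, adjusted p = 0.334). Among genes that xenobiotic receptors raise, Ugt1a1, the bilirubin-conjugating enzyme, had 155, 169, 149.7 and 159 CPM in BT3xHuBL, against 100.5, 113, 111 and 100.2 CPM in HuBL, without overlap (0.57, SE 0.082, adjusted p = 0.131). Like Nr1i3, Dbp and Elovl3, it is listed with an OVL suffix that the sources used here do not explain. Reads of overlapping genes may be split, and 3′-end counts under the name Ugt1a1 may not come from that gene alone. Abcc2, the canalicular exporter, also separated (0.50, SE 0.12, adjusted p = 0.281), as did the P450 binding partner Pgrmc1 in the other direction (−0.34, SE 0.12, adjusted p = 0.345). Over that list of inducible genes, 7 of 20 tested were above 0, with a median log2 fold change of −0.078, and of the xenobiotic receptors and hepatocyte factors 13 of 18, with a median of 0.10, beside 0.0092 over all features.

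Of other P450 families, the lipid hydroxylase Cyp4a14, a PPAR-alpha target, had 340, 255, 322 and 1286 CPM in BT3xHuBL livers, against 174, 36.5, 25.2 and 63.7 CPM in HuBL livers (log2 fold change 2.87, SE 0.85, adjusted p = 0.344), without overlap. Without BT3xHuBL replicate 4 its log2 fold change was 2.03. Of the 25 genes tested on that list, 14 had values above 0 and 11 below, and the median of the log2 values was 0.0051. In aorta the called gene was Dbp, the clock output factor that drives several liver P450s, with 98.8, 96.9 and 68.2 CPM in BT3xHuBL, against 32.2, 32.3 and 32.7 CPM in HuBL (1.44, SE 0.13, adjusted p = 0.0089). In liver Dbp had 7.2, 40.5, 3.23 and 2.63 CPM in BT3xHuBL, against 1.83, 2.3, 5.33 and 2.43 CPM in HuBL, with 1 high library. Ephx2 gave −0.26 (SE 0.15) in liver and 0.30 (SE 0.11) in aorta, neither called.

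From 15 lists of cell type markers, 0 of 45 tested genes were called in liver and 0 of 49 in aorta. At an unadjusted p under 0.05 there were 12 in liver, against 11.1% of all features, and 6 in aorta, against 4.08%. These counts describe the lists and do not test them. The 3 T cell markers summed to 1.08 to 2.65 CPM in BT3xHuBL livers and 2.99 to 5.93 CPM in HuBL livers, without overlap. All 3 had log2 fold changes below 0 in liver, with a median of −1.12, such as −1.48 for Cd3d (SE 0.49, adjusted p = 0.334). In aorta 2 of these 3 were above 0, with a median of 0.59. In liver the 3 smooth muscle markers tested were also below 0, with a median of −0.89, while in aorta 3 of 4 were above 0, with a median of 0.090. In aorta the 3 B and plasma cell markers tested were below 0, with a median of −1.79, and in liver they were below 0 with a median of −0.34. In aorta they summed to 56.1 to 162 CPM in BT3xHuBL and 297 to 603 CPM in HuBL. Most of that sum was Igkc, at 53.8 to 160 CPM in BT3xHuBL and 291 to 596 CPM in HuBL. Ms4a1, the B cell antigen CD20, had the smallest adjusted p of these, at 0.246. Their part in the members' values was not tested.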

How the data were processed

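Counts per feature were used as deposited. Per the labels' protocols, RNA was extracted with Qiagen RNeasy and sequenced from Lexogen QuantSeq V2 libraries, which read 3′ ends. Per the submitters' processing notes, the authors used HTSeq 2.0 and the GRCm38 build. For the aligner, the annotation and the use of strand: not given in the sources used here. Columns were matched to samples by library name in the labels, and 0 columns were left unused.

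Each tissue was filtered with filterByExpr, scaled by TMM and tested with edgeR 4.0.16's quasi-likelihood test (robust) in R 4.3.3, over all features, with Benjamini-Hochberg adjustment at 0.05. Tissue and interaction used all 14 libraries. DESeq2 1.42.0 and limma-voom (limma 3.58.1), other scalings, filters, a replicate block and each library left out were alternatives. CPM was computed from the counts and the TMM-scaled totals. Floors and intervals cover counting error only. The method was tested on simulated data that gave every feature the same dispersion. That setting does not cover members whose libraries spread widely, such as Cyp2b9. Replicate libraries were not copies of each other, with chi-square per degree of freedom of 12.2 to 75.7 within groups.

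Positions came from GENCODE M21 and promoters from RefSeq. Python 3.11.15, SciPy 1.17.1, Biopython 1.88 and matplotlib 3.10.9 were used. The members and gene lists were chosen with earlier results of these data known. Members given in full were the 10 of smallest p in each genotype comparison and the 12 of highest mean CPM in each tissue, and the text names up to 4 genes of smallest p per list. Some further genes, such as Elovl3, Ahsg and Trav14-1, were named after their values were seen. A permutation test of summed levels was planned and is not given, since the sums run over chosen members.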

Additional observations from a re-analysis of the deposited data

Results flagged for a closer look

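In 4 of 68 sets of 4 livers tested, 1 library lay apart from the other 3 beyond Dixon's 95% critical value. Chance gives about 1 in 20, close to the share flagged here. Cyp2c69 had 14.2 CPM in BT3xHuBL liver replicate 4 and 0.6 to 2.46 CPM in the other BT3xHuBL livers. Cyp2c68 had 229 CPM in the same library and 93.8 to 115 CPM in the other BT3xHuBL livers. Cyp2a5 had 571 CPM in HuBL liver replicate 1 and 291 to 330.2 CPM in the other HuBL livers. Cyp3a13 had 283 CPM in that HuBL library and 231 to 237 CPM in the others.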

How the results depend on the processing

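The counts of members called stayed at 0 for genotype in aorta and for the interaction under every alternative run, and in liver under all but DESeq2, which called 1, Cyp2a12. Over all features, liver calls were 127 with DESeq2, 10 with the replicate block, 5 with all libraries in one fit, 5 without BT3xHuBL replicate 2, 2 without BT3xHuBL replicate 3 and 0 without any other 1 library. Aorta calls were 68 with DESeq2, 0 with limma-voom, 14 with the block, 9 with no low-count filter and 0 to 27 with each library left out (27 without BT3xHuBL replicate 3, 2 without HuBL replicate 1, 0 without HuBL replicate 2 or 3). Interaction calls were 39 with DESeq2, 3 with the block and 4 without BT3xHuBL liver replicate 2. The sources used here do not say whether a liver and an aorta of the same genotype and number come from the same mouse. Tissue and interaction tests took them as unpaired, and the interaction block did not join liver with aorta. Correlations of deviations of same-numbered libraries were −0.044 to 0.16 between the livers, −0.059 to 0.13 between the aortas and −0.0069 to 0.16 between liver and aorta. They cannot settle a pairing. Members called under the block were 0 in liver, 0 in aorta, 0 for the interaction and 33 between tissues. The member sum differed, BT3xHuBL minus HuBL, by −34.5 CPM in liver, or 232 CPM with library totals and −253 to 332 CPM with a library left out, and by 4.18 CPM in aorta.

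Log2 fold changes near 0 changed sign, none of them called, and the cause was not tested. With limma-voom and the block they were −0.0445 and −0.0448 for Cyp2c70, 0.0711 and 0.0881 for Cyp2j9, −0.0201 and −0.00583 for Cyp2u1, and −0.0256 and −0.0256 for Cyp3a13 in liver. Cyp3a25 gave 0.00376 with limma-voom. With library totals Cyp2j9 gave 0.0253 and Cyp3a25 0.00838. In aorta Cyp2j6 gave −0.00054 with upper-quartile scaling and −0.0044 with the block. The Cyp2u1 interaction was −0.0222 with RLE, −0.0181 with DESeq2, −0.0861 with limma-voom and −0.0478 with the block. With each library left out in turn, liver values ran from −0.68 to 0.36 for Cyp2b10, −0.0249 to 0.10 for Cyp2c44, −0.0254 to 0.13 for Cyp2c50, −0.14 to 0.0639 for Cyp2c54, −0.30 to 0.25 for Cyp2c70, −0.11 to 0.15 for Cyp2d26 and −0.0132 to 0.11 for Cyp2j5. They ran from −0.21 to 0.27 for Cyp2j9, −0.23 to 0.22 for Cyp2u1, −0.0174 to 0.37 for Cyp3a11, −0.17 to 0.11 for Cyp3a13 and −0.14 to 0.0979 for Cyp3a25. Aorta values ran from −0.0782 to 0.0968 for Cyp2j6, −0.15 to 0.0285 for Cyp2j9, −0.24 to 0.40 for Cyp2s1 and −0.0816 to 0.19 for Cyp2u1. Interaction values ran from −0.17 to 0.32 for Cyp2j9 and −0.28 to 0.16 for Cyp2u1. Members with a few counts per library limit what can be seen at this depth.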
